A study of Arabidopsis thaliana with 16 samples.

Results

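The leaf transcriptome of Arabidopsis thaliana plantlets that lack most Fd-GOGAT1 transcript was compared with that of the wild type. All 4 leaf arrays of the mutant and all 4 leaf arrays of the wild type entered the comparison, 8 of the 16 arrays of a study that also profiled roots, and every probe set other than the manufacturer's controls was kept, 22266 in all. The mutant, glu1-2, is a homozygous T-DNA insertion line for Fd-GOGAT1 (GLU1) in the Col-0 background, and the wild type is Col-0, so the genotype contrast rests on 1 insertion allele. Plantlets of both genotypes were grown in vitro on Murashige and Skoog medium with sucrose, which also supplies ammonium nitrate, and rosette leaves of 18-day-old plantlets were taken 2 h into a 16 h light period. Each array held total leaf RNA of 1 biological replicate and measured mixed leaf tissue, in which fewer cells of a type and less RNA per cell cannot be told apart.

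Glutamate synthase works together with glutamine synthetase in the cycle through which plants bring ammonium into amino acids. The ferredoxin-dependent enzyme, Fd-GOGAT, sits in the chloroplast, draws electrons from photosynthetic electron transport, and makes glutamate from glutamine and 2-oxoglutarate. In leaves it also takes up the ammonium that photorespiration sets free in the mitochondria, and for this reason leaves without the enzyme are known to accumulate ammonium and to become pale in air. Arabidopsis has a second ferredoxin-dependent gene and an NADH-dependent one.

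The values were RMA intensities, a robust summary of the probes of a probe set after quantile normalization, given on a linear scale from 6 to 16005. They were used as log2, and 4 arrays per genotype limit the precision. Median intensities were 101 to 102 on the glu1-2 arrays and 97 to 99 on the wild type arrays, and 30.7% of all leaf values lay under 32, where signal was not separated from background. A group with a mean under 32 is called dim here, and a fold change against it is a lower bound. Of 8 mesophyll markers listed, 4 had a probe set with a gene name, and their summed intensity was 28604 to 35183 in glu1-2 leaves, against 39168 to 41091 in wild type leaves. The 3 of 14 root markers that could be found summed to 1094 to 1544 in glu1-2 leaves and to 1227 to 1534 in wild type leaves, with 0 called. For guard cells, 2 of 4 markers were found, and they summed to 1493 to 1850 in glu1-2 leaves, against 2594 to 3423 in wild type leaves, with AT1G22690 lower (-0.85, q = 4.21e-05) and FMA not passing (-0.35, q = 0.0492). The log2 ratio of 3' to 5' signal of the ubiquitin control was 0.97 to 1.04 in glu1-2 and 0.92 to 1.11 in the wild type. One array stood apart. In glu1-2 replicate 3, 72 probe sets lay at least 1 log2 unit below all 3 other glu1-2 arrays, 20 of them of the plastid genome, while any other leaf array had 0 to 2 such probe sets. Results for plastid-encoded genes and for cyclic electron flow are therefore given with and without it, while most other counts below include it. Some of those moved by 1 without it. Lower photorespiratory genes were then 5 against 4. Higher glutathione transferases were 4 against 3, and higher genes of the tricarboxylic acid cycle 11 against 12.

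Transcript of the targeted gene was nearly lost. The probe set of Fd-GOGAT1, identified as the sole one that matches the values stated for this gene in the study, read 35, 29, 39 and 35 in glu1-2 leaves, against 2472, 1245, 1948 and 1924 in wild type leaves. The difference in log2 intensity was -5.75 (SE 0.175), or 53.7-fold lower in glu1-2, and is given as a check of the labels, with no test. The glu1-2 mean was thus just above the limit of 32, with replicate 2 below it, and the 2 genotypes did not overlap.

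The change in leaves was broad and mostly small. Of the 22266 probe sets, glu1-2 leaves had a higher level in 3154 (14.2%) and a lower level in 3054 (13.7%), together 27.9% (limma, Storey's q-value under 0.01). In 96.3% of the higher calls and 96.1% of the lower calls the 4 arrays of one genotype lay entirely outside the 4 of the other, a separation that 32.5% of all probe sets showed. The median log2 difference was 0.57 among the higher calls and -0.54 among the lower ones, that is 1.48-fold and 1.46-fold. A log2 difference of at least 1 was reached by 547 of the higher and 406 of the lower calls, and of at least 2 by 102 and 42. The median over all probe sets was -0.02. Both genotypes were dim for 112 of the higher and 150 of the lower calls, which are thus not shown to lie above background.

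The balance between higher and lower calls moved with the level of a transcript in wild type leaves. Among the 641 probe sets with a wild type log2 mean of at least 11, the glu1-2 leaves were higher in 124 (19.3%) and lower in 231 (36%), with a median log2 difference of -0.17. Among the 2837 probe sets with a wild type mean between 64 and 128, 599 (21.1%) were higher and 376 (13.3%) lower, with a median of 0.01. The share of lower calls climbed over every step of the scale, and that of higher calls stayed between 14.9% and 21.1% above an intensity of 32. The wild type mean that orders the probe sets is itself one side of the difference, and how far this shapes the trend was not tested.

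**Figure D1:**
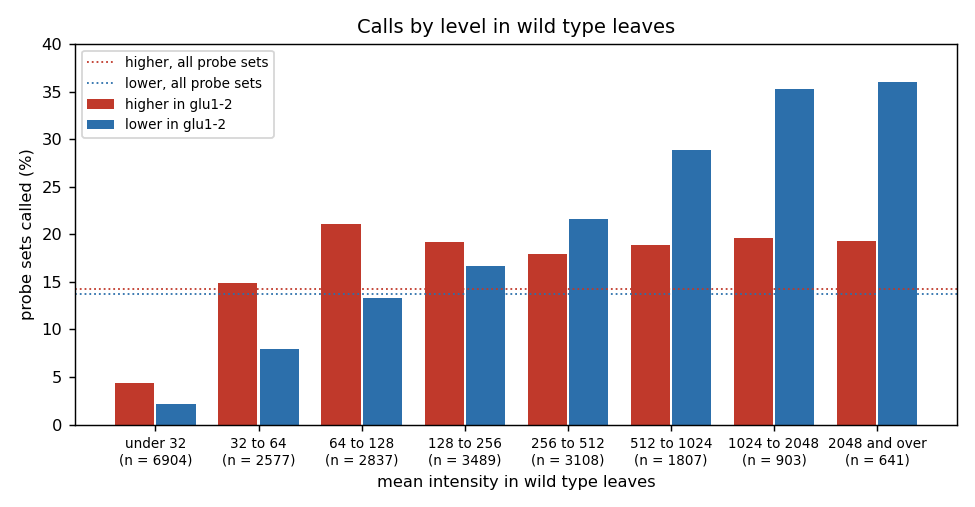
Percentage of probe sets called higher (red, left bar) or lower (blue, right bar) in glu1-2 leaves, by mean intensity in wild type leaves, with the number of probe sets below each class. Dotted lines give the shares over all 22266 probe sets, 14.2% higher and 13.7% lower, and the lower share reaches 36% in the brightest class.

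The nuclear chromosomes took part to a like degree. Counting each annotated gene once, through its brightest probe set, left 13093 genes, of which 13.1% were higher and 12.6% lower in glu1-2 leaves, and the share on the 5 nuclear chromosomes was 11.3% to 14.4% higher and 11.7% to 13.6% lower. These 2 shares over annotated genes are the background for the gene groups below, whose counts include only members that the platform annotation names. Only 1520 of the 13093 genes carried a symbol besides the locus number, so that each group covers a part of its pathway. Of the 57 gene lists 22 were written after values of these arrays had been seen, so their counts are descriptive. They include rRNA processing, nuclear RNA polymerases, nucleotide synthesis, respiratory dehydrogenases with cytochrome c, cyclic electron flow, photosystem assembly factors and the plastid genome. The antioxidant, thioredoxin, SWEET, organic cation, defensin, trichome birefringence-like, AGAMOUS-like, ubiquitin-related and bZIP lists are others.

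Of the 12 largest rises among genes named by the platform annotation, 7 belonged to families of detoxification and efflux. They were 2 genes of MATE efflux carriers, the glutathione transferases GSTU25 and GSTU22, which join glutathione to reactive or foreign compounds, and the UDP-glycosyltransferases UGT73B4, UGT73C1 and UGT73B5, which attach sugars to small molecules. The largest of all was AT2G04050, annotated as a MATE efflux carrier, which read 1426, 1341, 1953 and 1932 in glu1-2 leaves, against 24, 17, 23 and 22 in wild type leaves. The log2 difference was 6.26 (SE 0.147, q = 3.84e-11), or at least 76.9-fold. A second MATE gene, AT2G04070, read 399 to 475 in glu1-2 leaves and 22 to 24 in wild type leaves, a difference of 4.26. AT2G18190, annotated as an AAA-type ATPase, read 1135, 991, 1070 and 1313 in glu1-2 leaves, against 18, 13, 17 and 20 in wild type leaves, a difference of 6.06 (SE 0.132). In all 3 genes every wild type array was below 32, so that transcript was not separated from background in the wild type.

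GSTU25 read 828, 756, 682 and 672 in glu1-2 leaves, against 13, 15, 16 and 20 in wild type leaves. The difference was 5.53 (SE 0.126). Among the glycosyltransferases, UGT73B4 read 346 to 395 in glu1-2 leaves and 12 to 20 in wild type leaves, a log2 difference of 4.61 (SE 0.14). SUFE2, which encodes an activator of the cysteine desulfurase step of plastid iron-sulphur cluster assembly, read 516, 504, 509 and 481 in glu1-2 leaves, against 30, 30, 26 and 47 in wild type leaves. The difference was 3.96 (SE 0.15, q = 1.9e-09), and the wild type mean lay at the background limit. The other genes of this set were AT2G41730 at 4.39, AT1G10585, described as similar to bHLH proteins, at 3.69, and AT1G17960, a putative threonyl-tRNA synthetase, at 3.59 on the log2 scale.

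**Figure D2:**
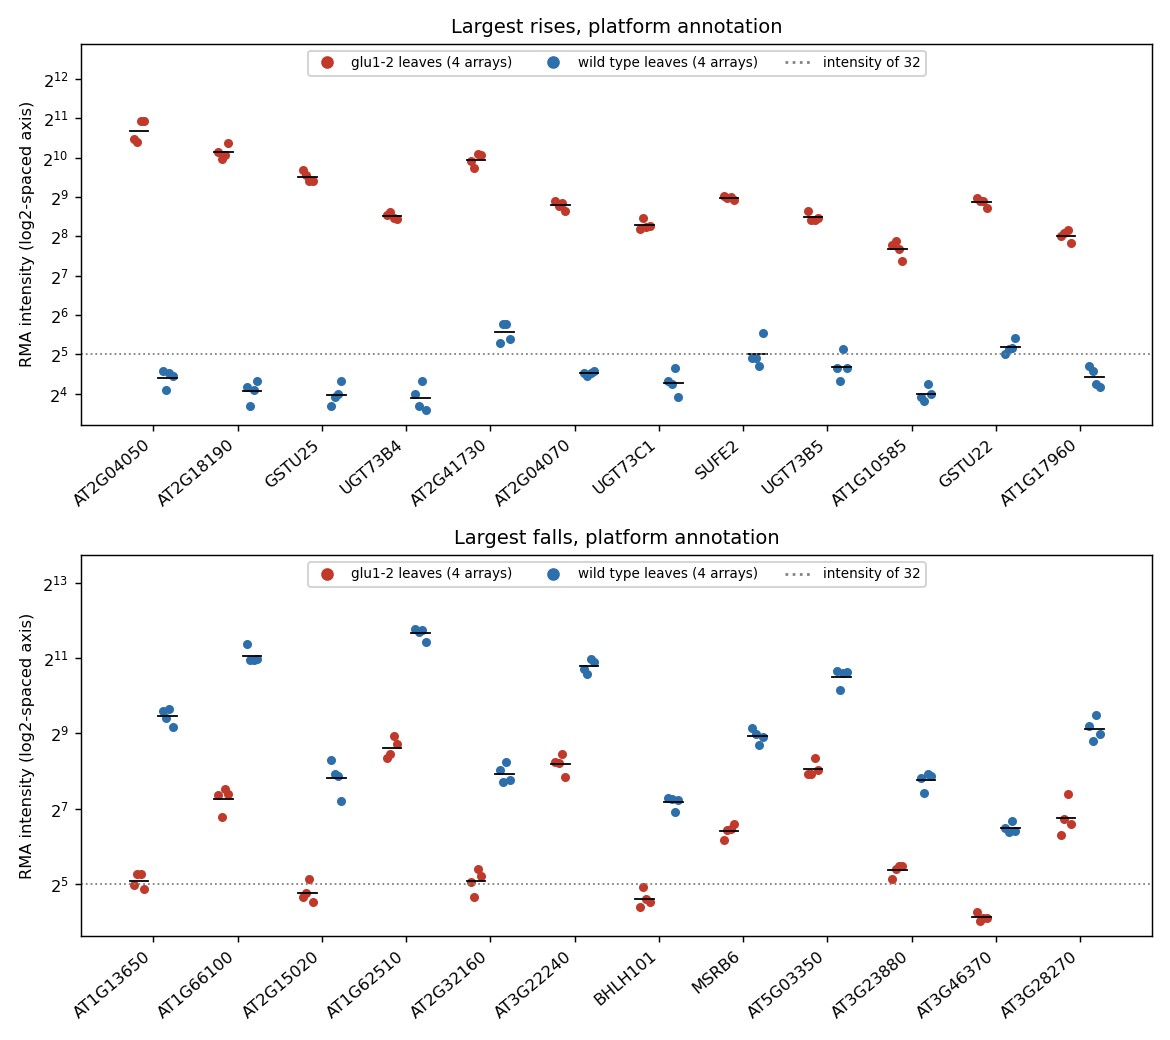
RMA intensity on a log2-spaced axis in the 4 glu1-2 (red, left) and 4 wild type (blue, right) leaf arrays for the 12 largest rises and the 12 largest falls among annotated genes; short lines are means of log2 values and the dotted line marks 32. The genes were chosen so that the genotypes do not overlap, and the wild type values of most rises lie below 32.

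Some large rises were named only through the replicate values listed in the study's supplement. All 563 probe sets named in this way were called higher, so that the naming adds rises and no falls. UGT74E2, a glycosyltransferase that acts on the auxin indole-3-butyric acid, showed the largest difference of any probe set named in either way, with 3987, 3680, 3644 and 3674 in glu1-2 leaves, against 55, 54, 45 and 28 in wild type leaves. The log2 difference was 6.41 (SE 0.178), or 85.1-fold. DTX1, a MATE carrier, read 1460 to 1637 in glu1-2 leaves and 19 to 22 in wild type leaves (6.19). ABCB4, an auxin transporter of the ABC family, read 996 to 1106 in glu1-2 leaves and 17 to 23 in wild type leaves (5.66). The genotypes were separated in all 3, which the choice of genes required, and wild type levels lay near background.

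Genes of carbon metabolism and regulation stood beside them. GPT2, which carries glucose 6-phosphate into plastids, read 573, 577, 688 and 750 in glu1-2 leaves, against 22, 27, 28 and 37 in wild type leaves, a log2 difference of 4.52 (SE 0.147). The beta-amylase gene BAM5 read 304, 464, 677 and 945 in glu1-2 leaves, against 16, 20, 17 and 38 in wild type leaves, a difference of 4.68 (SE 0.332). BAM5 varied more among the 4 glu1-2 arrays (SD 0.71 on the log2 scale) than the other large rises. CRF6, a cytokinin response factor, read 1610, 1525, 1101 and 1362 in glu1-2 leaves, against 87, 121, 111 and 100 in wild type leaves (3.74, SE 0.133). SOT12, a sulfotransferase, read 1129 to 1342 in glu1-2 leaves and 87 to 106 in wild type leaves, a difference of 3.69.

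The largest fall among annotated genes was AT1G13650, with 31, 38, 38 and 29 in glu1-2 leaves, against 768, 679, 797 and 578 in wild type leaves, a log2 difference of -4.37 (SE 0.125, q = 2e-10) and 20.7-fold. AT1G66100 followed with 163, 110, 183 and 166 in glu1-2 leaves, against 2665, 1962, 1970 and 2021 in wild type leaves, a difference of -3.81 (SE 0.155). AT1G62510 read 322, 350, 491 and 420 in glu1-2 leaves, against 3481, 3310, 3456 and 2774 in wild type leaves, a difference of -3.05 (SE 0.131). Neither the platform annotation nor the reference table used here gives a function for these 3 loci.

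Some of the 12 largest falls lay in genes with a known symbol. BHLH101, a transcription factor of the iron deficiency response, read 21, 30, 24 and 23 in glu1-2 leaves, against 155, 153, 121 and 151 in wild type leaves. The log2 difference was -2.57 (SE 0.121, q = 1.14e-08), or at least 5.94-fold, since all glu1-2 values were below 32. PYE, a second bHLH regulator of iron homeostasis, read 87 to 99 in glu1-2 leaves and 142 to 166 in wild type leaves, a difference of -0.71. These were the 2 measured members of the 27 loci in the iron list, so that most of the list was not seen. The 7 measured bHLH factors, BHLH101 among them, went both ways. bHLH121 was lower (-0.46), bHLH115 was higher (0.46), and 4 did not pass, ILR3 (-0.11) among them. MSRB6, a methionine sulfoxide reductase, which repairs oxidised methionine, read 72, 86, 88 and 96 in glu1-2 leaves, against 565, 504, 410 and 476 in wild type leaves (-2.51, SE 0.116). The other loci of this set, AT2G15020, AT2G32160, AT3G22240, AT5G03350, AT3G23880, AT3G46370 and AT3G28270, differed by -3.06 to -2.37 on the log2 scale.

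Among transcripts that were abundant in wild type leaves, rises were limited in size. With a wild type log2 mean of at least 11, the largest rise by the platform annotation was in AT1G08360, annotated as cytosolic ribosomal protein L10A, with 3716, 3160, 3642 and 3480 in glu1-2 leaves, against 2090, 2396, 2204 and 2449 in wild type leaves. The log2 difference was 0.62 (SE 0.0869, q = 7.91e-05). Next came FDH, the mitochondrial formate dehydrogenase, with 4818, 4204, 4892 and 5317 in glu1-2 leaves, against 3147, 3107, 3288 and 2995 in wild type leaves (0.61, SE 0.0874). AT3G02560, annotated as ribosomal protein S7, differed by 0.61 as well. Falls at such levels were larger, with AT5G48490 at 997, 991, 1282 and 962 in glu1-2 leaves, against 3674, 3720, 3493 and 3661 in wild type leaves, a difference of -1.79 (SE 0.0984).

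Genes for making ribosomal RNA rose together. Ribosomal RNA is transcribed in the nucleolus by RNA polymerase I and is then cut, modified and folded by a large set of processing factors, a costly step in building ribosomes. All 14 measured genes of rRNA processing were higher in glu1-2 leaves, against 13.1% of annotated genes, with log2 differences of 0.65 to 1.61 and a median of 1.13. Values of 3 of the 14 had been seen when the list was written. The largest difference was in AT1G06720, which the supplement describes only as an expressed protein, at 250, 223, 248 and 242 in glu1-2 leaves, against 74, 90, 69 and 84 in wild type leaves (1.61, SE 0.0964, q = 8.99e-08). AT3G12860, annotated as a putative Nop56, a core protein of the particles that methylate rRNA, read 127, 88, 130 and 122 in glu1-2 leaves, against 44, 37, 39 and 39 in wild type leaves, a difference of 1.54 (SE 0.123).

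The other members of this group act at successive steps of the same process. YAO, a nucleolar WD40 protein, read 301 to 339 in glu1-2 leaves and 117 to 144 in wild type leaves (1.28). RRP41, a core subunit of the exosome, which trims RNA from its 3' end, read 421 to 504 in glu1-2 leaves and 167 to 198 in wild type leaves (1.24). IMP4, named for a yeast factor in making the small subunit RNA, read 230 to 304 in glu1-2 leaves and 129 to 142 in wild type leaves (0.98). AT5G14520, described as related to pescadillo, a large subunit factor first known from zebrafish, read 1237, 1123, 1027 and 1265 in glu1-2 leaves, against 581, 560, 561 and 585 in wild type leaves (1.02, SE 0.0855). For all 14 genes the lowest glu1-2 array lay above the highest wild type array. Such separation was found in 96.3% of all higher calls and 32.5% of all probe sets, so it adds little to the calls themselves. The smallest rise, in the helicase-like AT3G16840, was 0.65.

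Subunits of the nuclear RNA polymerases rose as well. Of 12 measured, 9 were higher and 0 lower in glu1-2 leaves, with a median log2 difference of 0.51. The largest differences were in both measured large subunits of RNA polymerase I, which transcribes the rRNA genes. NRPA1 read 321, 292, 334 and 349 in glu1-2 leaves, against 106, 108, 96 and 117 in wild type leaves (1.60, SE 0.0896, q = 5.14e-08). NRPA2 read 453, 460, 445 and 394 in glu1-2 leaves, against 163, 185, 170 and 183 in wild type leaves (1.32, SE 0.0838). The large subunits of RNA polymerase III, which makes transfer RNA and 5S rRNA, followed with NRPC2 at 0.99 and NRPC1 at 0.66. The 5 subunits named for RNA polymerase II or IV and V that passed, NRPB12, NRPE7, NRPB6A, NRPB7 and NRPB9B, lay between 0.34 and 0.74. NRPB6B, NRPD7 and NRPB9A did not pass, at 0.20, 0.25 and -0.01. Without glu1-2 replicate 2 the q of NRPB6B was 0.00653 and that of NRPD7 0.00502, and NRPB9B lost its call (q of 0.0154 to 0.0234) without glu1-2 replicate 1 or 3 or wild type replicate 1, 3 or 4.

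Synthesis of nucleotides, the building blocks of RNA, showed a smaller shift. Of 12 measured genes of pyrimidine and purine synthesis, 6 were higher and 0 lower in glu1-2 leaves, with a median log2 difference of 0.28. AT1G79470, annotated as inosine monophosphate dehydrogenase on the path to guanine nucleotides, read 173, 172, 211 and 213 in glu1-2 leaves, against 75, 111, 79 and 87 in wild type leaves (1.14, SE 0.129). FAC1, an AMP deaminase, read 686 to 909 in glu1-2 leaves and 399 to 445 in wild type leaves (0.92). PYRB, the aspartate transcarbamoylase that opens pyrimidine synthesis, read 594 to 705 in glu1-2 leaves and 352 to 383 in wild type leaves (0.83).

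**Figure D3:**
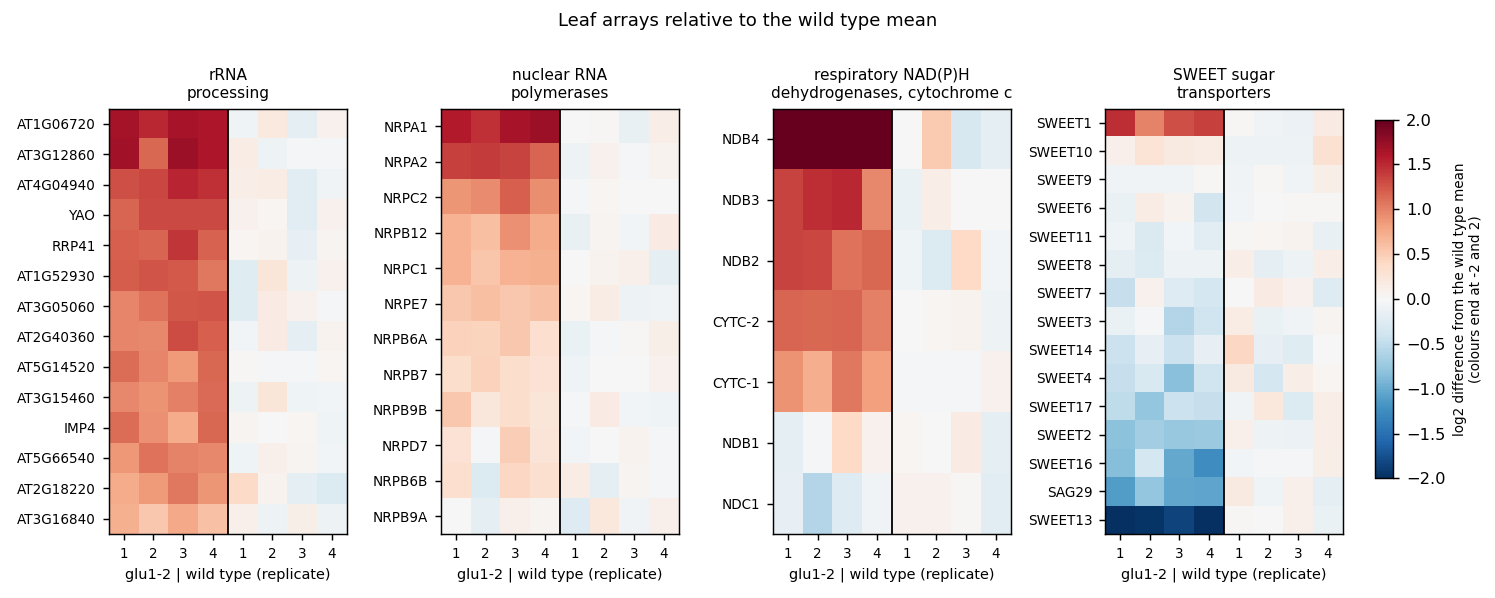
Log2 difference of each leaf array from the wild type mean of the gene, with the 4 glu1-2 arrays left and the 4 wild type arrays right of the line in each panel. All 14 rRNA processing genes are red in every glu1-2 array, NDB1 and NDC1 stay pale among the respiratory genes, and SWEET1 is the single called rise among the SWEET genes.

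Respiratory genes that bypass or follow complex I were higher. Plant mitochondria carry, besides complex I, dehydrogenases on the inner membrane that pass electrons from NADH or NADPH to ubiquinone without pumping protons, and cytochrome c carries electrons to the terminal oxidase. Of 7 measured members of this group, 5 were higher and 0 lower in glu1-2 leaves, with a median log2 difference of 1.12. NDB4 read 153, 189, 191 and 164 in glu1-2 leaves, against 25, 36, 20 and 22 in wild type leaves, a difference of 2.79 (SE 0.16), or at least 6.92-fold. NDB2 read 557, 551, 464 and 484 in glu1-2 leaves, against 206, 181, 288 and 209 in wild type leaves (1.24, SE 0.132). NDB3 read 103 to 150 in glu1-2 leaves and 48 to 58 in wild type leaves (1.32). The remaining dehydrogenases, NDB1 at 0.07 and NDC1 at -0.27, did not pass (q = 0.362 and 0.0461), so that the rise covered 3 of the 5 measured.

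Both cytochrome c genes rose. CYTC-1 read 3601, 3176, 3993 and 3392 in glu1-2 leaves, against 1891, 1891, 1868 and 2046 in wild type leaves (0.88, SE 0.0878), and CYTC-2 read 662 to 741 in glu1-2 leaves and 308 to 347 in wild type leaves (1.12). Enzymes of the tricarboxylic acid cycle, which yields the 2-oxoglutarate used by glutamate synthase, rose by less. Of 14 measured among 25 listed loci, 12 were higher and 0 lower in glu1-2 leaves, with a median log2 difference of 0.50. The fumarate hydratase genes were not among the 14, so the count of 0 lower does not cover the whole cycle. IDH-V, a catalytic subunit of NAD-dependent isocitrate dehydrogenase, read 1197, 1203, 1110 and 1140 in glu1-2 leaves, against 613, 675, 644 and 658 in wild type leaves (0.84, SE 0.0746). SDH1-1, the flavoprotein subunit of succinate dehydrogenase, read 828, 889, 885 and 897 in glu1-2 leaves, against 489, 485, 511 and 504 in wild type leaves (0.81). The iron-sulphur subunits SDH2-1 and SDH2-2 differed by 0.60 and 0.50, the succinyl-CoA ligase gene AT5G08300 by 0.84 and the cytosolic isocitrate dehydrogenase cICDH by 0.38. The catalytic subunit IDH-VI at 0.39 (q = 0.0103, or 0.0018 without wild type replicate 4) and the regulatory subunit IDH-III at -0.18, which was dim in both genotypes, did not pass.

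Chloroplast genes of cyclic electron flow fell. The chloroplast NADH dehydrogenase-like complex and the PGRL1 pathway return electrons from photosystem I to the plastoquinone pool, and the complex is built from subunits of both the nuclear and the plastid genome. Of 19 measured members, 10 were lower and 0 higher in glu1-2 leaves, against 12.6% lower among annotated genes, with a median log2 difference of -0.66. By genome, 8 of 9 nuclear members and 2 of 10 plastid-encoded members were lower. The median was -0.66 in both, but without glu1-2 replicate 3 it was -0.68 for the nuclear and -0.47 for the plastid-encoded members, and 12 members were then lower.

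Among nuclear subunits, NdhN read 547, 534, 576 and 554 in glu1-2 leaves, against 1382, 1215, 1387 and 1356 in wild type leaves, a difference of -1.27 (SE 0.0777, q = 1.07e-07). NdhL read 794, 572, 789 and 770 in glu1-2 leaves, against 1769, 1544, 1543 and 1544 in wild type leaves (-1.14, SE 0.112). NdhS, which forms the site where ferredoxin docks, read 1260 to 1543 in glu1-2 leaves and 2044 to 2254 in wild type leaves (-0.66). CRR42, CRR41, CRR28 and CRR21, factors needed to assemble the complex or to edit its transcripts, differed by -0.53 to -0.83, while the editing factor CRR22 differed by -0.05 and did not pass. PGRL1B read 457 to 541 in glu1-2 leaves and 725 to 910 in wild type leaves (-0.65). The groups did not overlap for any of the 8 nuclear genes that fell. This held for 96.1% of all lower calls, so it adds little to the calls themselves.

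Falls of smaller size were found in other photosynthetic groups. Of 5 photosystem assembly factors 3 were lower, HCF101 and LPA19 by -0.80 each and LPA2 by -0.52 on the log2 scale, while LPA1 at -0.11 and LPA66 at 0.04 did not pass. HCF101, which supplies iron-sulphur clusters to photosystem I, read 564, 595, 644 and 580 in glu1-2 leaves, against 1064, 954, 1085 and 1047 in wild type leaves. Of 4 Calvin cycle genes 3 were lower, the largest SBPASE, the sedoheptulose bisphosphatase, with 2712, 2168, 2534 and 2401 in glu1-2 leaves, against 4231, 4395, 5125 and 4323 in wild type leaves (-0.88, SE 0.0956). RCA, the Rubisco activase, did not pass at -0.20 (q = 0.059). Of 8 tetrapyrrole genes 6 were lower, led by CHLM at -0.73 and CHLI2 at -0.61, both on the magnesium branch to chlorophyll. Of 6 photorespiratory genes 4 were lower, with HPR, the peroxisomal hydroxypyruvate reductase, at 5189, 3820, 5587 and 4944 in glu1-2 leaves, against 7524, 7736, 7953 and 8001 in wild type leaves (-0.69, SE 0.111). Of 4 photosystem subunit genes 3 were lower and 0 higher, and the other 4 lists named here also held 0 rises. The antenna proteins were split, with LHCB4.2 lower, LHCB4.1 not passing at -0.15, and LHCB4.3 higher, at 354, 345, 447 and 394 in glu1-2 leaves, against 301, 267, 320 and 291 in wild type leaves (0.38, q = 0.00513). LHCB4.3 lost its call (q of 0.0109 to 0.0159) without glu1-2 replicate 3 or 4 or wild type replicate 1, 2 or 4. The mesophyll marker sum was lower in every glu1-2 array than in every wild type array, as given above, and includes PRK and LHCB4.2, which were themselves lower (-0.59 and -0.45). The guard cell marker sum was lower in every glu1-2 array as well. The part of tissue make-up in these falls was not tested.

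Few plastid-encoded genes passed the test, and their values depended on the array. Of 69 measured plastid genes the test called 12 lower in glu1-2 leaves and 0 higher, with a median log2 difference of -0.49 and 65 of 69 differences below 0. The median difference from the wild type mean was -0.12, -0.38, -0.97 and -0.42 in the 4 glu1-2 arrays, and 0.15, 0.05, -0.12 and -0.08 in the wild type arrays. Leaving out glu1-2 replicate 3 gave a median of -0.30 with 63 differences below 0, and 15 genes then passed. The number lower was 4 to 7 on leaving out any wild type array, and among the glu1-2 arrays 19 on leaving out replicate 1 and 7 on leaving out replicate 2.

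The low values of replicate 3 were uneven between plastid genes. psaA, a reaction centre protein of photosystem I, read 789, 538, 51 and 435 in glu1-2 leaves, against 1321, 1305, 734 and 743 in wild type leaves, a difference of -1.66 (SE 0.662, q = 0.0365) that was -0.79 without that array. For rpl16, a plastid ribosomal protein, the values were 768, 653, 93 and 696 in glu1-2 leaves and 765, 733, 686 and 675 in wild type leaves, so that the difference of -0.75 became -0.02 without that array. psaJ, a small photosystem I subunit, read 6143, 4979, 796 and 4773 in glu1-2 leaves, against 5043, 6329, 6672 and 6190 in wild type leaves (-0.88, and -0.19 without that array). psbA, the D1 protein of photosystem II, went against this pattern, with 287, 279, 443 and 283 in glu1-2 leaves, against 952, 572, 661 and 538 in wild type leaves (-1.07, SE 0.189, q = 0.000409, and -1.23 without replicate 3). Replicate 3 was thus the highest glu1-2 array for psbA and by far the lowest for the other 3 genes. The drop was not limited to plastid genes, since 27 other annotated probe sets shared it, among them the 2 of AT1G01320, which read 142, 158, 23 and 141 in glu1-2 leaves and 140 to 176 in wild type leaves. These 2 probe sets hold the same values and count as 1 measurement, and in all 52 distinct profiles made up the 72.

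**Figure D4:**
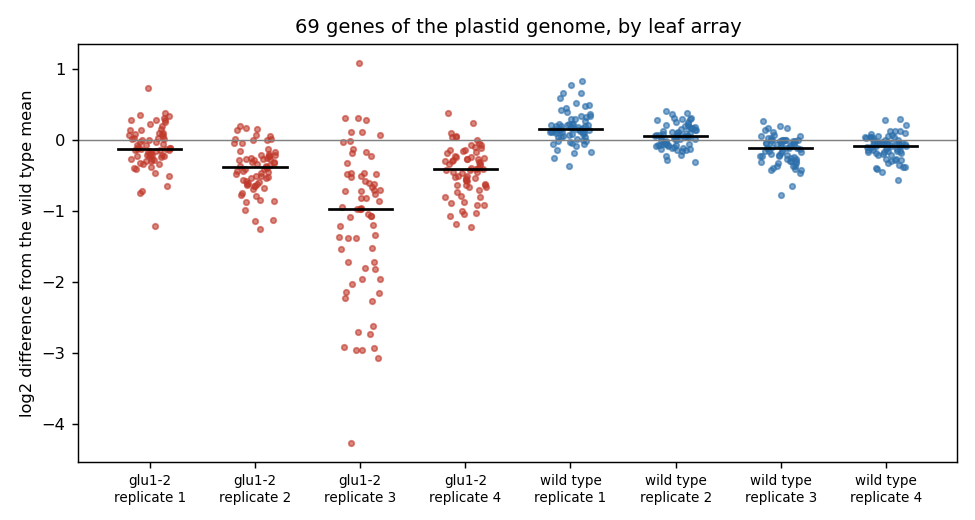
Log2 difference from the wild type mean for 69 genes of the plastid genome in each leaf array, glu1-2 (red) left and wild type (blue) right, with the median of each array as a black line. The medians of the glu1-2 arrays are -0.12, -0.38, -0.97 and -0.42, and replicate 3 also spreads over more than 4 log2 units.

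Antioxidant genes split, with counts close to balance. Of 13 measured, 4 were higher and 4 lower in glu1-2 leaves, and the median log2 difference was 0.00. The 2 chloroplast ascorbate peroxidases, which remove hydrogen peroxide with ascorbate, moved in opposite directions. SAPX, the stromal form, which is also sent to mitochondria, read 1243, 1184, 1201 and 1159 in glu1-2 leaves, against 508, 425, 449 and 503 in wild type leaves (1.35, SE 0.0836, q = 1.2e-07). TAPX, the thylakoid-bound form, read 627, 472, 658 and 539 in glu1-2 leaves, against 1171, 991, 1274 and 1138 in wild type leaves (-1.0, SE 0.117, q = 1.86e-05). The 2 glutathione reductases differed in the same manner, GR1, the cytosolic and peroxisomal form, at 0.43 and GR, the form of chloroplasts and mitochondria, at -0.39. Methionine sulfoxide reductases did so too, with MSRB6 at -2.51 as described above, MSRB5 at 0.50, and MSRB3 and MSRB9 at 0.04 and 0.00, which did not pass. VTC4, on the path of ascorbate synthesis, read 545 to 644 in glu1-2 leaves and 925 to 1123 in wild type leaves (-0.83).

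Plastid thioredoxins, which carry reducing power from ferredoxin to enzymes, were also mixed, with 1 of 7 measured higher and 3 lower. TRXF2, which activates Calvin cycle enzymes, read 828, 818, 902 and 914 in glu1-2 leaves, against 2494, 1776, 2130 and 1760 in wild type leaves (-1.22, SE 0.114). NTRC, the NADPH-dependent thioredoxin reductase with its own thioredoxin domain, read 906 to 1005 in glu1-2 leaves and 956 to 965 in wild type leaves, a difference of 0.01 that did not pass. TY1, a y-type thioredoxin, was higher by 0.60, at 87 to 101 in glu1-2 leaves and 60 to 67 in wild type leaves.

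Sugar transporters of the SWEET family, which let sugars pass out of cells or vacuoles down their gradient, held more falls than rises. Of 15 measured, 6 were lower and 1 higher in glu1-2 leaves and 8 did not pass, with a median log2 difference of -0.29, and 5 members were dim in both genotypes. SWEET13, a sucrose carrier of the kind that loads the phloem apoplast, read 85, 99, 107 and 75 in glu1-2 leaves, against 395, 388, 414 and 355 in wild type leaves (-2.10, SE 0.112, q = 3.46e-08). SWEET11, the brightest member, has the same role in leaf veins and did not pass, with 1118, 970, 1137 and 1007 in glu1-2 leaves and 1206, 1215, 1244 and 1065 in wild type leaves (-0.16, q = 0.0928). The vacuolar carriers SWEET16, SWEET17 and SWEET2 differed by -0.87, -0.54 and -0.75. SAG29, also known as SWEET15, read 149 to 188 in glu1-2 leaves and 281 to 366 in wild type leaves (-0.99). SWEET1, a glucose carrier of the plasma membrane, went the other way, with 492, 351, 433 and 458 in glu1-2 leaves, against 179, 168, 164 and 199 in wild type leaves (1.28, SE 0.111).

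The 3 measured carriers of the organic cation (OCT) family were all higher in glu1-2 leaves. OCT5 read 552, 508, 615 and 553 in glu1-2 leaves, against 78, 73, 80 and 81 in wild type leaves, a log2 difference of 2.83 (SE 0.0832, q = 2.52e-10). OCT1, described as a carnitine transporter, read 46 to 75 in glu1-2 leaves and 19 to 24 in wild type leaves (at least 1.51), and OCT4 53 to 69 and 34 to 52 (0.61), so that the last 2 lay near background in either genotype.

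Of 47 measured UDP-glycosyltransferases, 18 were higher and 5 lower in glu1-2 leaves, with a median log2 difference of 0.18, while 15 members were dim in both genotypes. The count of lower members was 3 without wild type replicate 1. All 10 differences of at least 1 in size that passed were rises. Beside the UGT73 genes given above, UGT87A2 read 973, 1128, 849 and 884 in glu1-2 leaves, against 164, 124, 209 and 188 in wild type leaves (2.50, SE 0.15). UGT84A3, which esterifies phenylpropanoids, read 1288, 1245, 1377 and 1124 in glu1-2 leaves, against 261, 211, 242 and 254 in wild type leaves (2.38, SE 0.0949). UGT76B1, which glycosylates isoleucic and salicylic acid, read 82 to 106 in glu1-2 leaves and 26 to 32 in wild type leaves (at least 1.61 on the log2 scale). The cytokinin N-glycosyltransferases UGT76C1 and UGT76C2 were lower, at -0.77 and -0.33 on the log2 scale. UGT76C2 lost its call (q of 0.0134 to 0.0227) without glu1-2 replicate 1, 3 or 4 or wild type replicate 1, 2 or 3. UGT78D1 and UGT78D2 of flavonol and anthocyanin glycosylation did not pass, at -0.24 and -0.22.

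Among 2 other families of detoxification, calls by the platform annotation went both ways. Of 14 glutathione transferases named by the platform annotation, 3 were higher and 3 lower in glu1-2 leaves, with a median of 0.08. GSTU18 read 433, 409, 476 and 406 in glu1-2 leaves, against 887, 801, 875 and 890 in wild type leaves (-1.0), beside the rises of GSTU25 and GSTU22. A further 10 glutathione transferase genes were named only through the supplement, and all 10 were higher, by 0.63 to 5.61 on the log2 scale. Among them, GSTU24 read 1577 to 1781 in glu1-2 leaves and 30 to 40 in wild type leaves (5.61), GSTU1 read 965 to 1125 in glu1-2 leaves and 35 to 55 in wild type leaves (4.52), and GSTU8 read 605 to 615 in glu1-2 leaves and 33 to 39 in wild type leaves (4.05). Since that naming reaches higher calls only, the balance of 3 and 3 does not describe the whole family. Of 23 cytochrome P450 genes 3 were higher and 3 lower, among them CYP71B22 at 1.22 and CYP71B24 at -1.64. All of these calls were of the CYP71B group, to which most of the 23 belong. The P450 shares were close to those over annotated genes, and with few other groups in the list they do not describe the whole family.

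**Figure D5:**
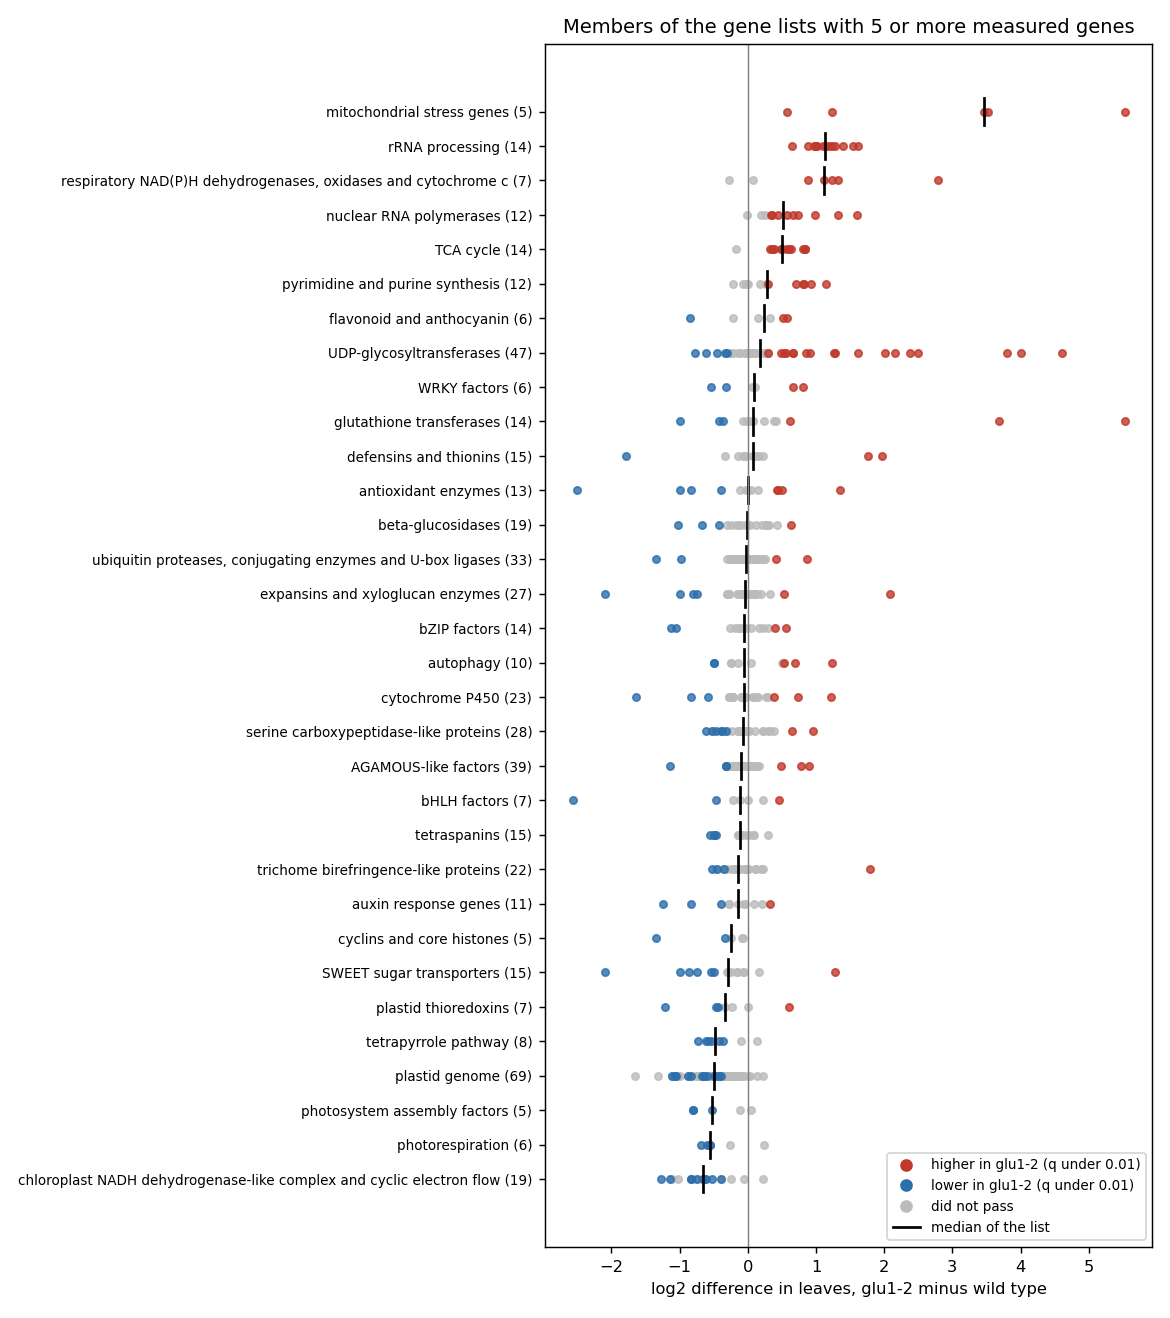
Log2 difference, glu1-2 minus wild type, of each measured member of the gene lists with 5 or more members (number in brackets), red where higher, blue where lower and grey where it did not pass, with the list median as a black bar. The rRNA processing genes lie together at a median of 1.13, the UDP-glycosyltransferases run from -0.77 to 4.61, and the chloroplast NADH dehydrogenase-like list has the lowest median, -0.66.

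Defence peptides and cell wall genes held single large changes among many small ones. The plant defensins PDF1.2b and PDF1.2, markers of jasmonate and ethylene signalling, were higher. Of 4 measured genes of the jasmonate list, however, PDF1.2 was the only one called, and the list median was -0.02. The other 3 did not pass, with log2 differences of -0.14 to 0.1. PDF1.2b read 265, 106, 193 and 197 in glu1-2 leaves, against 51, 36, 35 and 70 in wild type leaves (1.97, SE 0.27), and PDF1.2 read 203, 221, 312 and 187 in glu1-2 leaves, against 84, 45, 48 and 108 in wild type leaves (1.77, SE 0.259). The thionin THI2.2 was lower, with 311, 314, 325 and 298 in glu1-2 leaves, against 1047, 1200, 1024 and 1036 in wild type leaves (-1.78, SE 0.0808). These were the sole calls among the 15 measured members of the defensin and thionin list. The list was drawn from gene names and may miss genes of these families known only by locus number. Its shares of calls were close to or below those over annotated genes, 13.1% higher and 12.6% lower. Of 27 expansin and xyloglucan enzyme genes, which loosen or rebuild cell walls, 2 were higher and 4 lower in glu1-2 leaves. The lower share was close to that over annotated genes, and the higher share was below it. EXPB1 read 45 to 67 in glu1-2 leaves and 199 to 267 in wild type leaves (-2.10), EXPA8 read 1140 to 1229 in glu1-2 leaves and 2103 to 2604 in wild type leaves (-0.99), and XTH19 read 138 to 194 in glu1-2 leaves and 31 to 53 in wild type leaves (2.09). TBL37, of the trichome birefringence-like family that acetylates wall polysaccharides, read 403 to 495 in glu1-2 leaves and 117 to 150 in wild type leaves, a difference of 1.79. It was the only rise among 22 measured members, of which 3 were lower, with a median of -0.14. The lower count was 1 to 6 under the alternatives.

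Among genes of turnover and stress, 3 of 10 autophagy genes were higher and 2 lower. The rises and the falls were all of the ATG8 type, the ubiquitin-like proteins that coat autophagosomes. Most of the 10 measured genes are of that type, so this follows largely from the make-up of the list. ATG8B read 538, 404, 575 and 449 in glu1-2 leaves, against 210, 204, 200 and 209 in wild type leaves (1.24, SE 0.109). ATG8H differed by 0.69 and ATG8D by 0.53. The 2 lower members differed by -0.5 and -0.49, and only 1 was lower without wild type replicate 1. Of 4 genes of the cold and dehydration list 3 were higher, the dehydrin LTI30 by 1.19, with 504 to 529 in glu1-2 leaves and 202 to 269 in wild type leaves, COR15B by 0.46 and COR47 by 0.35. PWD, the phosphoglucan water dikinase that opens starch granules for breakdown, read 901, 926, 982 and 903 in glu1-2 leaves, against 594, 640, 591 and 617 in wild type leaves (0.60), and was the only call among 4 starch genes. The clock gene GI read 682 to 791 in glu1-2 leaves and 449 to 488 in wild type leaves (0.67).

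Regulatory families had calls in both directions. Of 6 WRKY factors 2 were higher and 2 lower in glu1-2 leaves, of 7 bHLH factors 1 and 2, and of 14 bZIP factors 2 and 2. Over annotated genes the shares were 13.1% higher and 12.6% lower. Both bZIP shares and the higher bHLH share were close to these, and the WRKY and bHLH lists hold few members. The lower WRKY count was 1 without replicate 1, 2 or 3 of either genotype, and the higher bZIP count was 1 without glu1-2 replicate 3 or 4 or wild type replicate 1 or 2. The auxin-responsive IAA29 read 37 to 49 in glu1-2 leaves and 88 to 125 in wild type leaves (-1.24), and IAA18 differed by -0.39, in a list of 11 with 3 lower and 1 higher. The higher one, GH3.17, of a family that joins auxin to amino acids, read 143, 153, 149 and 149 in glu1-2 leaves, against 107, 134, 109 and 127 in wild type leaves (0.32, q = 0.00757). GH3.17 lost its call (q of 0.0135 to 0.0229) without any 1 glu1-2 replicate and without wild type replicate 1 or 3. The related bZIP genes BZIP61 and BZIP34 were both lower, at 139 to 179 in glu1-2 leaves and 343 to 359 in wild type leaves (-1.13) for the first, and at 37 to 51 and 77 to 98 (-1.06) for the second. The U-box ubiquitin ligases PUB19 and PUB26 were lower by -1.34 and -0.98, and were the sole falls among 33 ubiquitin protease, conjugation and U-box genes, of which 2 were higher. HIS1-3, a linker histone variant known to respond to drought, read 178 to 242 in glu1-2 leaves and 419 to 561 in wild type leaves (-1.34). AKINBETA1, a subunit of the SnRK1 energy sensor kinase, read 269 to 299 in glu1-2 leaves and 385 to 443 in wild type leaves (-0.53). Of 39 AGAMOUS-like genes 33 did not pass, and of 33 ubiquitin-related genes 29 did not, shares of calls below those over annotated genes.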

How the data were processed

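Biotin-labelled RNA was hybridised to Affymetrix ATH1 arrays. The intensity values deposited by the authors had been summarised per probe set by RMA with quantile normalization, and are whole numbers on the linear scale. No further normalization was applied and log2 was taken. For RMA, no version is given in the sources used here.

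Of 22279 probe sets 13 controls were left out. Differences between 4 glu1-2 and 4 wild type leaf arrays were tested with limma 3.58.1 in R 4.3.3 (lmFit and eBayes, two-sided, unpaired), and called at a q-value under 0.01 by Storey's method, with an estimated share of unchanged probe sets of 0.487. The fit was tested on simulated data. The platform annotation named 1 gene for 13216 probe sets, and replicate values in the study's supplement, which were used for names only, named 563 more. These were all called higher and entered no list. The probe set of Fd-GOGAT1 was found by the levels and differences stated for it, and the fold changes and p-values of the study's own comparisons were otherwise not used. The members and the 57 gene lists were chosen with earlier results of these data known, 22 of them after values of these arrays had been seen, so list counts carry no test. Of the lists, 9 had 0 members named by the annotation and are not described. Named genes were the 12 largest rises and falls with separated arrays and 1 gene, 3 passing members per list and its brightest member that did not pass, and 6 rises and falls among abundant transcripts. Further members were named after their values were seen. Promoter sequences were not analysed here. Alternatives were Benjamini-Hochberg adjustment, other normalizations, an intensity filter, trended and robust moderation, a replicate block, a fit of all 16 arrays, and leaving out each array.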

Additional observations from a re-analysis of the deposited data

Results flagged for a closer look

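The values below were picked out because, among the 4 arrays of a genotype, 1 lay far from the other 3 by Dixon's criterion. Of 322 groups of 4 tested for 161 named genes 32 met it. The criterion is set for about 1 in 20 among independent groups of continuous values. Some of these genes were named after their values were seen, and the values are whole numbers, so the count cannot be compared with that rate. By array they were 3, 7, 7 and 2 in glu1-2 replicates 1 to 4, and 2, 7, 2 and 2 in wild type replicates 1 to 4. No cause was tested.

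In glu1-2 replicate 1, UGT74E2 read 3987 where the other 3 read 3644 to 3680, SDH1-1 828 against 885 to 897 and YAO 301 against 337 to 339. In glu1-2 replicate 2, COR15B read 784 where the other 3 read 926 to 950, NdhL 572 against 770 to 794, NRPB6B 232 against 348 to 374, AT3G12860 88 against 122 to 130, cICDH 3640 against 3896 to 3939, NRPC1 60 against 66 to 67 and MSRB5 781 against 917 to 924. In glu1-2 replicate 3, AT5G48490 read 1282 where the other 3 read 962 to 997, psbA 443 against 279 to 287, UGT76C2 104 against 118 to 121, psaJ 796 against 4773 to 6143, rpl16 93 against 653 to 768, RRP41 504 against 421 to 431 and AT1G01320 23 against 141 to 158. In glu1-2 replicate 4, TY1 read 87 where the other 3 read 99 to 101 and CYTC-2 662 against 735 to 741.

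In wild type replicate 1, AT1G66100 read 2665 where the other 3 read 1962 to 2021 and NdhL 1769 against 1543 to 1544. In wild type replicate 2, AT5G03350 read 1140 where the other 3 read 1568 to 1601, DTX1 19 against 22 in each, ABCB4 17 against 22 to 23, GSTU8 33 against 38 to 39, GSTU18 801 against 875 to 890, NdhN 1215 against 1356 to 1387 and THI2.2 1200 against 1024 to 1047. In wild type replicate 3, BHLH101 read 121 where the other 3 read 151 to 155 and RRP41 167 against 194 to 198. In wild type replicate 4, HIS1-3 read 419 where the other 3 read 540 to 561 and CYTC-1 2046 against 1868 to 1891.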

How the results depend on the processing

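The counts of 3154 higher and 3054 lower probe sets stayed within 1.5 times under all 15 alternatives. They were 2766 and 2593 with Benjamini-Hochberg adjustment, 2873 and 4016 with arrays shifted to the same median (which moves the median of all differences from -0.02 to -0.08), 3207 and 3191 with repeated quantile normalization, 3464 and 3424 among the 15392 probe sets of a mean of at least 32, 3392 and 3246 under robust moderation with an intensity trend, 3737 and 3699 with all 16 arrays, and between 2706 and 3166 higher and 2588 and 2933 lower on leaving out any array. The main fit did not pair the samples by replicate number. Deviations of same-numbered arrays correlated at 0.1144, 0.0696, 0.0795 and -0.0322, and those of differently numbered arrays at -0.1307 to 0.104. For wild type replicates 1, 2 and 3 the same-numbered value was the highest, so a weak pairing is not excluded. With the replicate number as a block 2931 were higher and 2821 lower. Of 192 called probe sets among those named or described, 180 kept their call under every alternative, 12 lost it under at least 1 and 0 changed sign, while 14 that did not pass gained a call under at least 1. In the text, NRPB9B, UGT76C2, LHCB4.3 and GH3.17 lost their calls and IDH-VI, NRPB6B, NRPD7 and UGT78D1 gained one. The causes were not tested. Counts of lower members were 5 to 23 for the plastid genome outside the fits with an array left out. With arrays shifted to the same median they were 4 for the ubiquitin-related list and 5 for the AGAMOUS-like factors, which also had 5 with all 16 arrays. Counts of higher members were 1 for the expansin and xyloglucan list with the intensity filter and 5 for the glutathione transferases with all 16 arrays. Differences below an intensity of 32 are limited by background, and the number of 4 arrays per genotype limits the rest.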
